A study of Mus musculus with 6 samples.

Results

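The proteasome genes of mouse blood stem and progenitor cells were compared between control mice and mice that had lost Med12. The genes were chosen by symbol: any probe set of the array assigned to exactly 1 gene whose symbol begins with Psma, Psmb, Psmc, Psmd, Psme, Psmf or Psmg and a digit. That gave 103 probe sets for 49 of the 18193 genes with a probe set of their own, and for each gene the probe set with the highest mean over the 6 arrays was used. Of the 49 genes, 47 encode subunits, assembly chaperones, activators or inhibitors of the proteasome. Psmc3ip, a meiotic recombination factor, and Psme3ip1, a protein that binds the activator encoded by Psme3, carry matching symbols but are not proteasome subunits, and they are counted apart.

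The cells were lineage-negative, c-Kit-positive and Sca1-positive bone marrow progenitors (HSPCs), sorted by flow cytometry, of a B6/129 background. The group HSPC_Med12 KO came from Med12Flox;MxCre mice, in which Cre is driven by the interferon-responsive Mx promoter, so deletion is not restricted to blood cells. The group HSPC_control came from mice whose genotype, including whether they carried Cre, the labels do not give. Both groups were sampled 4 days after pI:pC, a double-stranded RNA that raises interferon, and ages are not given. Each group had 3 arrays, hybridised with cDNA amplified from 5 ng of total RNA. The labels do not say whether the arrays of a group came from separate animals, and the spread behind the p-values may therefore be technical.

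The proteasome degrades proteins that carry ubiquitin chains. Its barrel, the core particle, is built of alpha and beta rings, and the beta subunits Psmb5, Psmb6 and Psmb7 hold the proteolytic sites. The regulatory particle caps the barrel, with a ring of ATPases (Psmc genes) that unfold and thread substrates and non-ATPase subunits (Psmd genes) that bind and deubiquitinate them. In blood cells, and wherever interferon acts, Psmb8, Psmb9 and Psmb10 can replace the catalytic subunits to give the immunoproteasome, which favours peptides that fit MHC class I.

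Values in the text are deposited linear signals, and differences are of log2(signal + 16), Med12 KO minus control, from limma fitted to all 45037 probe sets. That fit called 343 probe sets (0.762%) at an adjusted p of 0.05. The targeted gene Med12 had signals of 278.6, 837.4 and 441.6 in controls and 89.1, 100.4 and 86.4 in knockouts (log2 -2.17, SE 0.38, limma adjusted p = 0.0796). Its groups did not overlap, and whether its probe set lies in the deleted part is not known here. The median signal of an array lay between 26.7 and 26.9 for controls and between 16.5 and 21.3 for knockouts. The sort marker Kit was present in both groups, ranging over the control arrays from 805.2 to 1425.4 and over the knockout arrays from 514.8 to 617.5. Signal is relative within an array, and in bulk samples fewer cells of a type and less RNA per cell cannot be told apart.

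Nearly all proteasome genes had somewhat higher signal in Med12 knockouts, and none by itself passed the test. Log2 differences were above 0 for 44 of the 47 proteasome genes, and for all 31 constitutive subunits of the core and regulatory particles chosen by symbol. Sem1, a regulatory particle subunit whose symbol does not match, was listed with the cofactors and was at -0.002 with overlapping groups. Over all genes, 42.2% had a difference above 0. The median difference was 0.24 for the 14 constitutive core genes and 0.46 for the 17 regulatory particle genes, against -0.05 for all genes. After median centring these 3 medians were 0.52, 0.74 and 0.22. The 10610 genes whose probe set was brighter than the median probe set, a class that holds 48 of the 49 members, had a median of 0.00, and 50.1% of them were above 0. The 31 subunits ranged from 0.04 (Psma6) to 1.02 (Psmd7), which are folds of 1.03 and 2.02 on this scale. Of the 49 genes, 0 passed limma's test in either direction, where 0.352% of all genes passed as higher and 0.638% as lower. At an unadjusted p of 0.05, 15 of the 49 were higher and 0 lower, against 7.83% and 10.3% of all genes. The count of higher genes was 36 after median centring, 10 in a plain equal-variance test, 9 with an offset of 4 before log2, and 8 without Med12 KO replicate 1 or without Med12 KO replicate 2. With the mean of a gene's probe sets 13 were higher and 2 lower. The shares of all genes under these settings were not counted, and median centring raised every difference by the same amount. Over all probe sets and both directions, 7067 had an unadjusted p under 0.05 in the main fit and 8749 after median centring. The 3 knockout signals lay above all 3 control signals for 20 of the 49 and below them for 0, where 9.85% and 13.5% of all genes did so. Among the brighter genes 15% lay above and 12.4% were higher at an unadjusted p of 0.05. Median centring could not turn any of the 31 subunits, because all were already above 0. The direction held for all 31 after quantile normalization and for 29 after loess normalization, where Psma6 (-0.02) and Psmb4 (-0.01) turned. With the mean of a gene's probe sets it held for 27, and Psma6 (-0.01), Psma1 (-0.19), Psmb1 (-0.17) and Psmd6 (-1.12) turned.

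**Figure D1:**
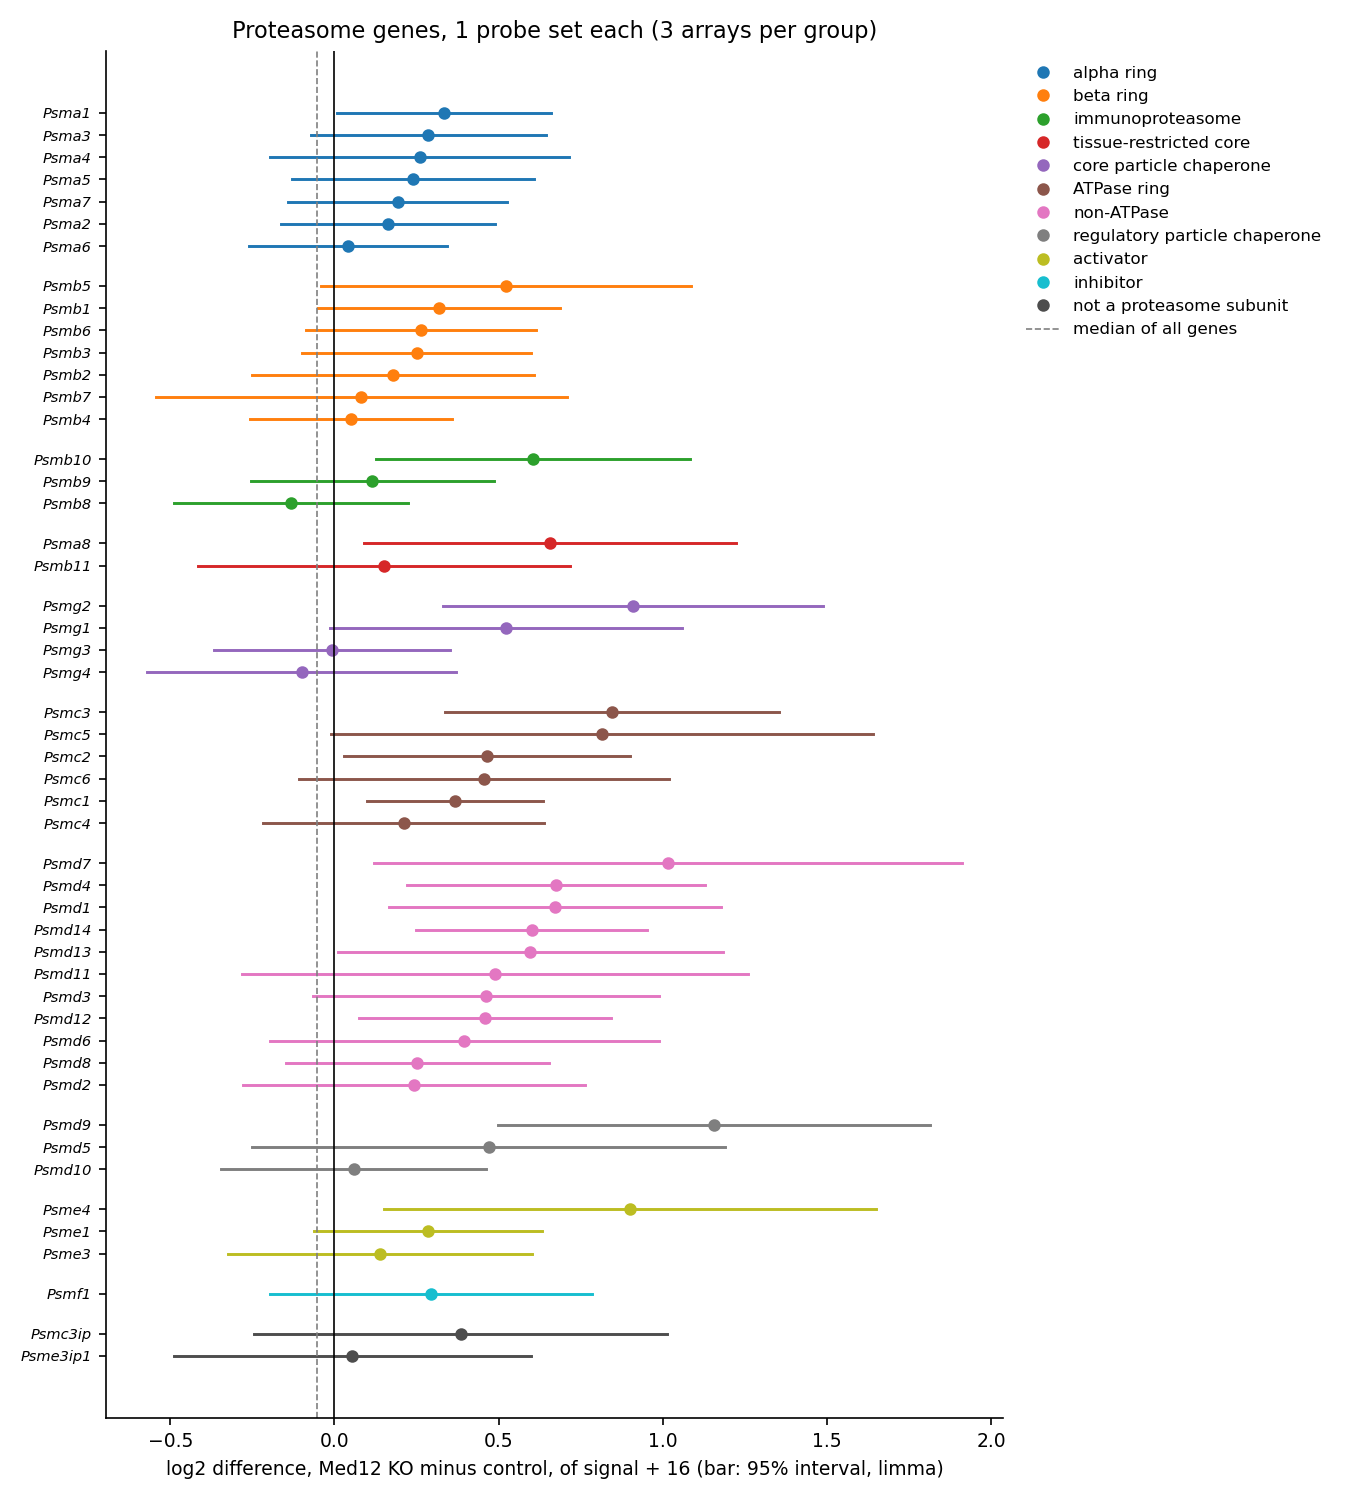
Log2 difference of each of the 49 genes, Med12 KO minus control, with its 95% interval from limma, grouped and coloured by structural class; the dashed line is the median of all genes. The 31 constitutive core and regulatory particle genes all sit to the right of 0, while Psmb8, Psmg3 and Psmg4 sit at or left of it.

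**Figure D2:**
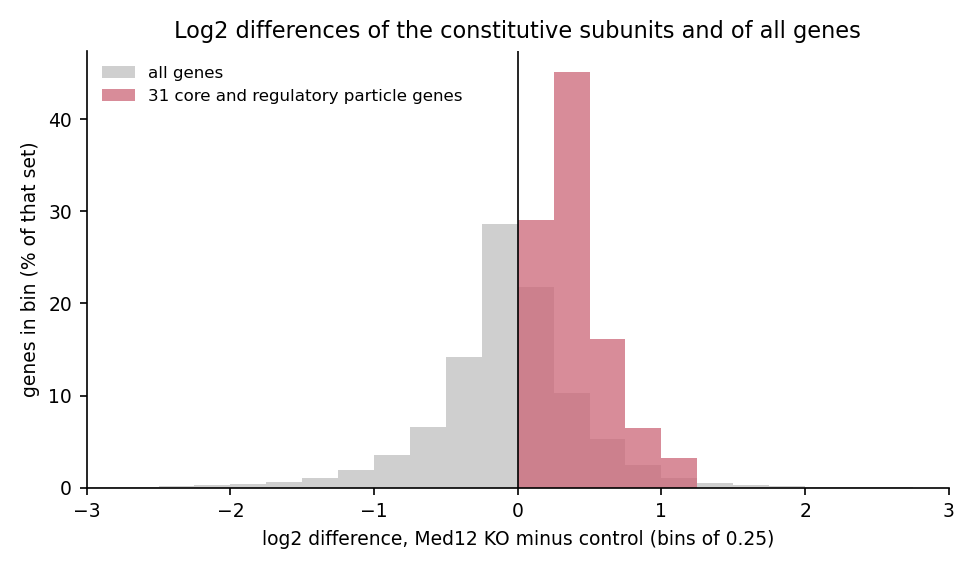
Share of genes in bins of 0.25 of the log2 difference, Med12 KO minus control, for all 18193 genes (grey, drawn from -3 to 3) and for the 31 core and regulatory particle genes (red). All 31 lie above 0, 14 of them between 0.25 and 0.5.

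Promoter sequences of RefSeq (build GRCm38.p6) were found for 41 of the 49 genes, and the 250 bases before each start were searched on both strands for short motifs. The motifs were CCGGAAG, the core bound by ETS factors, TGACNNNGC, of the antioxidant response element that NFE2L1 and NFE2L2 bind, the interferon response element, and TTCNNNGAA, of the interferon-gamma activated site, which reads the same on both strands. CCGGAAG was present in 13 of the 41 genes (31.7%), in 6.91% of all promoters and in 10.1% of promoters of genes on the array. The 13 include Psmc3ip, and the 41 include both genes that are not proteasome subunits. Among genes with a promoter entry, CCGGAAG was in 5 of 9 non-ATPase, 3 of 5 ATPase, 1 of 7 alpha ring and 0 of 4 beta ring genes. It was in 2 of 3 activator, 1 of 3 core particle chaperone, 0 of 3 regulatory particle chaperone and 0 of 3 immunoproteasome genes. Whether the motif goes with the differences was not tested. TGACNNNGC was in 5 of 41 (12.2%), in 10.2% of all promoters and in 11.5% of those of genes on the array. The interferon response element was in 3 (7.32%, against 2.98% of all promoters and 2.61% of those of genes on the array). TTCNNNGAA was in 2 (4.88%, against 7.02% and 6.21%). A match is a description of letters, not of a bound site, and matches of different motifs overlapped in 0 of these genes. The sequences below belong to regulatory genes with higher signal (Psmd4, Psmd9 and Psmd12) and to the constitutive and immune forms of one catalytic position (Psmb5 and Psmb8), with each motif in capitals.
Psmd4, chr3:95042615-95042864, minus strand: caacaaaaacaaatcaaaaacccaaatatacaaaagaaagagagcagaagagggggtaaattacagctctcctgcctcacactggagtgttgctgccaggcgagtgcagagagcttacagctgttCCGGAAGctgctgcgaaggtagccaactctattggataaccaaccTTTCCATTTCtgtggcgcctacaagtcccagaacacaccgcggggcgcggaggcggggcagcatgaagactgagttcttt
Psmd9, chr5:123227940-123228189, plus strand: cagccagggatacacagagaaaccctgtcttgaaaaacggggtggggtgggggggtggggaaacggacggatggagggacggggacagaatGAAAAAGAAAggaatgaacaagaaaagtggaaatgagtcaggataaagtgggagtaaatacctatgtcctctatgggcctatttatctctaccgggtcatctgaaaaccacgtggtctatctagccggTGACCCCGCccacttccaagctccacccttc
Psmd12, chr11:107479278-107479527, plus strand: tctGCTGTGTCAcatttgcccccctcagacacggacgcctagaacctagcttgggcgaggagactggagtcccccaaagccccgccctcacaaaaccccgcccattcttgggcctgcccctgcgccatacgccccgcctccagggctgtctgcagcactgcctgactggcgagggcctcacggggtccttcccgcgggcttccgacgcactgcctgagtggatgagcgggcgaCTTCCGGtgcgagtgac
Psmb5, chr14:54617996-54618245, minus strand: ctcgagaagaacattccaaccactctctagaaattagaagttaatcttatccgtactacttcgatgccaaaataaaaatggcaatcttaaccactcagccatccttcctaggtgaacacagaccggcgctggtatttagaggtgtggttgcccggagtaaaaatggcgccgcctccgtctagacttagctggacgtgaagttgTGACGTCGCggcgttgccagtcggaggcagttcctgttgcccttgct
Psmb8, chr17:34197945-34198194, plus strand: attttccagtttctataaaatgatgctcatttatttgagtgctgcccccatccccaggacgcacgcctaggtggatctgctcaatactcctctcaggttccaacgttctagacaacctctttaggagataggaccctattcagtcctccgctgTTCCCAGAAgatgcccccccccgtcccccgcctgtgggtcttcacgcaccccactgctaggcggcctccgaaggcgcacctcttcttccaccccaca
Psmd4 held CCGGAAG and an interferon response element in reverse form, Psmd9 held that element in forward form, and Psmd12 held CCGGAAG and TGACNNNGC in reverse form. TGACNNNGC stood within 50 bases of the start in Psmb5 and in Psmd9. Psmb8 held TTCNNNGAA alone.

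The alpha ring, which gates the entrance of the core particle, had small differences. Its 7 ubiquitous genes had differences from 0.04 to 0.33, with a median of 0.24. Psma1 had signals of 1071.3, 854.8 and 944.6 in controls and 1244.4, 1145.5 and 1229.1 in knockouts (log2 0.33, SE 0.13, limma adjusted p = 0.309). Its groups did not overlap, although its knockout mean was 1.26 times the control mean. Psma5 was also apart, with 1167.8 to 1550.8 in controls and 1574.9 to 1729.6 in knockouts (log2 0.24). Psma3 was at 0.29 with overlapping groups, and Psma6 at 0.04, with a 95% interval of -0.26 to 0.34. The intervals of 6 of the 7 genes included 0. Psma8, the testis-specific alpha subunit, was dim, at 62.2 to 106.4 in controls and 104.2 to 158.9 in knockouts.

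In the beta ring the differences ran from 0.05 to 0.52, with a median of 0.25. Psmb5, which carries the chymotrypsin-like site, had 477, 378.8 and 424.3 in controls and 528.5, 856.6 and 517.4 in knockouts (log2 0.52, SE 0.23, limma adjusted p = 0.352). All 3 knockout signals were above the controls, and Med12 KO replicate 2 was the highest. Psmb6, the caspase-like subunit, had 1200.2, 1149.8 and 964.2 against 1350.7, 1426 and 1205.2 (log2 0.26, adjusted p = 0.448), again without overlap. Psmb7, the trypsin-like subunit, overlapped throughout: 1193.8, 1315.5 and 2109.7 against 1408.9, 1899.9 and 1470.1 (log2 0.08, 95% interval -0.55 to 0.71). Its direction turned without control replicate 1 (-0.08), without control replicate 2 (-0.01) or without Med12 KO replicate 2 (-0.05). Of the structural beta subunits, Psmb1 was at 0.32 with groups apart, Psmb3 at 0.25, Psmb2 at 0.18 and Psmb4 at 0.05. The dimmer probe sets of Psmb1 went the other way, at -0.47 with groups apart and at -0.35 with overlap. Those of Psmb3 and Psmb4 were at 0.20 and 0.26, both overlapping. Psmb11, the thymus-specific catalytic subunit, had signals of 1 to 9.8 on all 6 arrays.

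The 3 immunoproteasome genes varied among themselves, with a median difference of 0.12. That median was 0.39 after median centring and 0.05 after loess normalization. It was 0.01 without control replicate 2, 0.06 without Med12 KO replicate 2 and 0.20 without Med12 KO replicate 3. Psmb10 had 899, 1126.4 and 1212.2 in controls and 1853.4, 1789.8 and 1318.9 in knockouts, a mean 1.53 times higher (log2 0.60, SE 0.19, limma adjusted p = 0.223). Its groups did not overlap. Psmb9 had 2267.3, 1816.2 and 2256.5 against 2364.8, 2457.4 and 2038.1 (log2 0.12, 95% interval -0.25 to 0.49). Psmb8 was the only catalytic subunit with a lower mean in knockouts, at 1289.6, 1386.9 and 1559.1 against 1203.2, 1465.3 and 1198.1 (log2 -0.13, 95% interval -0.49 to 0.23). After median centring Psmb8 was at 0.14. The groups overlapped for Psmb8 and for Psmb9.

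Each immune subunit takes the place of 1 constitutive one, so the log2 ratio of the 2 was formed on each array and its shift compared between groups. The level of such a ratio has no meaning across probe sets, only its shift. Psmb8 relative to Psmb5 shifted by -0.65, from 1.69 ± 0.25 to 1.04 ± 0.24 (SD, n = 3 each; two-sided exact permutation p = 0.10, or 0.15 adjusted over the 3 pairs). Psmb10 relative to Psmb7 shifted the other way, by 0.52, from -0.47 ± 0.29 to 0.05 ± 0.30 (exact permutation p = 0.10, adjusted 0.15). Psmb9 relative to Psmb6 shifted by -0.15 with overlapping groups (exact permutation p = 0.50, adjusted 0.50). With 3 arrays against 3 the smallest p is 0.10, so no ratio could pass.

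**Figure D3:**
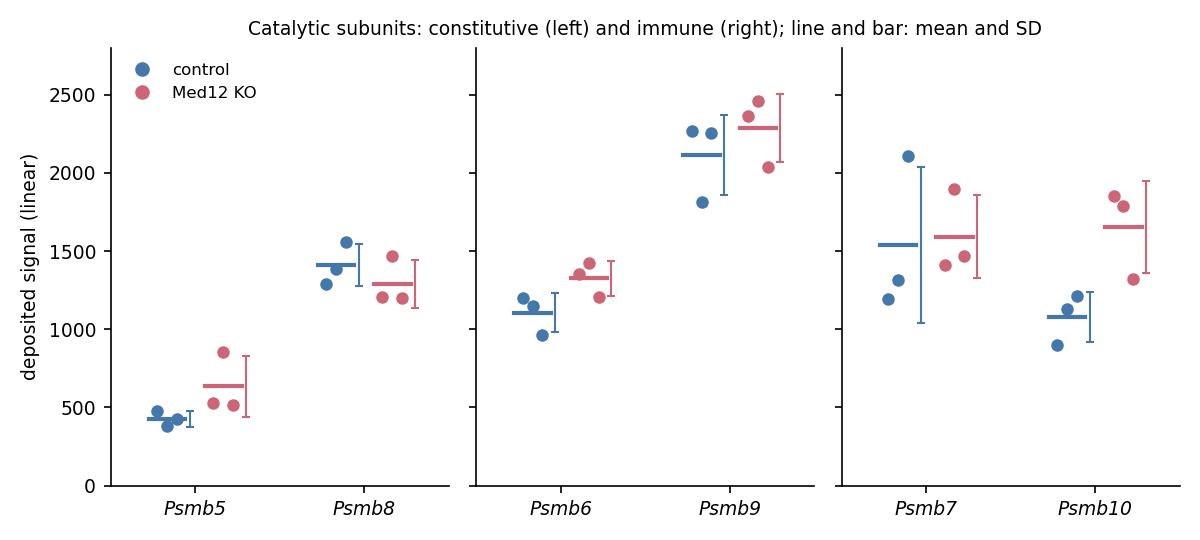
Deposited linear signal of the catalytic subunits on each of the 6 arrays, the constitutive form on the left and the immune form on the right of each panel; points are arrays, lines are means and bars are SD (n = 3). Psmb5, Psmb6 and Psmb10 have all knockout points above all control points, and Psmb7, Psmb8 and Psmb9 overlap.

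The 6 ATPase ring genes all had higher means in knockouts, with a median difference of 0.46, against 0.24 for the constitutive core. The core genes had brighter probe sets, with a mean log2 level in controls of 10.40 against 9.86 for the ATPase ring. Whether differences depend on signal level was not tested. The ATPase ring ranged from 0.21 (Psmc4) to 0.85 (Psmc3). Psmc3 had 780.3, 479 and 509.1 in controls and 1026.5, 1020.9 and 1097.2 in knockouts, 1.78 times the control mean (log2 0.85, SE 0.21, limma adjusted p = 0.141). Psmc1 had the tightest replicates: 1662.4, 1548 and 1605.7 against 2041.3, 2049.2 and 2131.8 (log2 0.37, SE 0.11, adjusted p = 0.196). Psmc2 was likewise apart, at 825.4 to 1166 against 1257 to 1570.3 (log2 0.46), and its next brightest probe set was at 0.74. Psmc5 (0.81), Psmc6 (0.46) and Psmc4 overlapped between groups. The other probe sets of Psmc6 were at -0.33 and, for a dim one, 0.40, both overlapping. That of Psmc4 was at 0.57 with groups apart.

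Among the 11 non-ATPase subunits, 7 had all knockout signals above all controls, where 9.85% of all genes and 15% of the brighter genes did. The median difference was 0.49. Psmd14, the deubiquitinase that removes ubiquitin chains as substrates enter, had 1062.1, 978.3 and 913.2 in controls and 1314.8, 1523.6 and 1680.8 in knockouts (log2 0.60, SE 0.14, limma adjusted p = 0.134). Psmd4, a ubiquitin receptor, had 741.4, 563.3 and 488.1 against 1011.4, 981.5 and 862.1 (log2 0.67, SE 0.19, adjusted p = 0.172). A second Psmd4 probe set differed by more, at 363.4, 247.6 and 276.8 against 838.8, 666.2 and 583.1 (log2 1.19, adjusted p = 0.0775). Psmd1, a large scaffold subunit, had 458.4, 482.9 and 297.6 against 661.3, 617.1 and 685.4 (log2 0.67, adjusted p = 0.205). The scaffold partner of Psmd14, Psmd7, had the highest value of the constitutive subunits (1.02) but a wide 95% interval of 0.12 to 1.91, and was at 0.39 with the mean of its probe sets. Psmd12 (0.46), Psmd13 (0.60) and Psmd8 (0.25) were also without overlap. Psmd2, Psmd3, Psmd6 and Psmd11, at 0.24 to 0.49, overlapped.

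The arrays of a group differed in how many subunits stood apart. Of the 31 constitutive subunits, 27 had a signal above all controls in Med12 KO replicate 3, 25 in replicate 2 and 18 in replicate 1. The share of all genes above all controls on each array was not counted, and the differences between arrays were not tested. The lowest control was replicate 2 or replicate 3 for 13 genes each and replicate 1 for 5. The mean log2 level of the regulatory particle genes minus that of the constitutive core came to -0.88, -0.995 and -1.15 for the 3 controls, whereas the knockouts gave -0.65, -0.83 and -0.63. All 3 knockout values of this difference were above the controls, and it was not tested. The mean log2 level in controls was 10.40 for the constitutive core and 9.40 for the regulatory particle. A dependence of the shift on signal level was not tested either. Without control replicate 1 the regulatory median was 0.61, and without control replicate 3 it was 0.37.

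**Figure D4:**
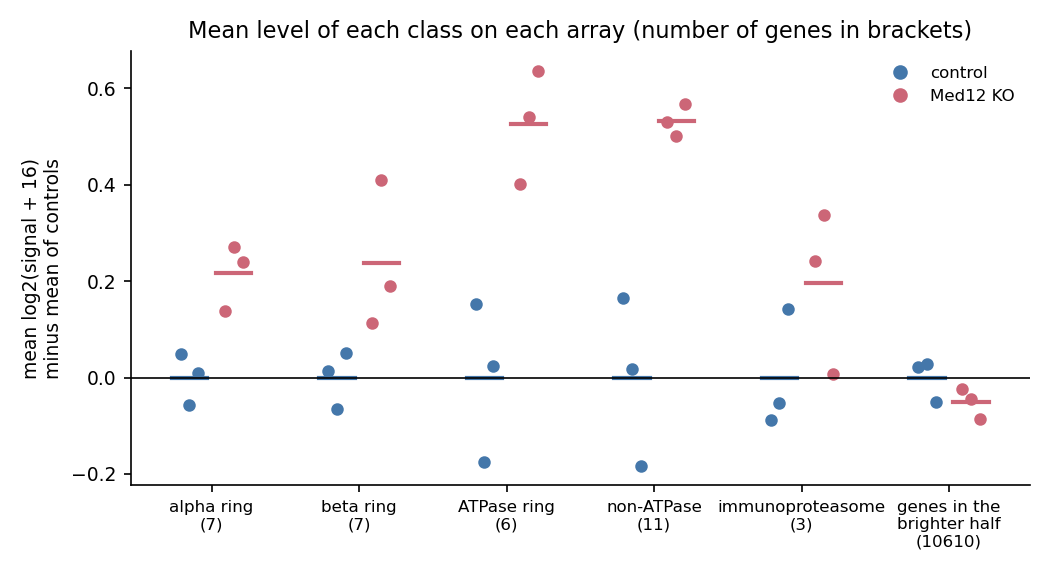
Mean log2(signal + 16) of each class on each array, minus the mean of the 3 control arrays; points are arrays and lines are group means. The ATPase and non-ATPase classes stand 0.53 above controls, the alpha and beta rings 0.22 and 0.24, and the 10610 brighter genes -0.05.

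Assembly factors ranged from no difference to the highest of all members. Psmd9, a chaperone of the ATPase ring, had the highest difference of all 49 genes: 197.6, 106.7 and 107.1 in controls against 265, 306.1 and 378.3 in knockouts, 2.31 times the control mean (log2 1.16, SE 0.27, limma adjusted p = 0.128). Its groups did not overlap, and its other 2 probe sets, both dim, were at -0.19 and 1.06. Psmd5, which also assists the ATPase ring, was at 0.47 and Psmd10 (gankyrin) at 0.06, both overlapping. Of the core particle chaperones, Psmg2 had 272.6, 460.9 and 404.9 against 585.3, 768.5 and 799.5 (log2 0.91, SE 0.24, adjusted p = 0.155), and Psmg1, its partner, 285.1 to 401.8 against 384.7 to 610.1 (log2 0.52). Psmg3 and Psmg4, which form the other chaperone pair, were at -0.01 and -0.10, with 95% intervals of -0.37 to 0.35 and -0.57 to 0.37.

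Of the activators, Psme4 had 290.7, 239.4 and 132 in controls and 391.7, 343 and 497.9 in knockouts (log2 0.90, SE 0.31, limma adjusted p = 0.242). The interferon-inducible activator subunit Psme1 had 1554.6, 1564.4 and 1467.5 against 1873.3, 2129.8 and 1626.3 (log2 0.28, adjusted p = 0.407). Both were without overlap. The nuclear activator Psme3 was at 0.14 by its brightest probe set and at 0.70 by the next, where 803.2, 833.8 and 842.1 stood against 1167.7, 1644.8 and 1275.9 (adjusted p = 0.126). The inhibitor Psmf1 was at 0.29 and overlapped. Psmc3ip (0.38) and Psme3ip1 (0.05), which are not subunits, overlapped as well.

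Psmd6, a non-ATPase subunit of the lid, was read by 2 bright probe sets with opposite results. The brighter probe set, which was used for the gene, had 980.1, 518.3 and 665.6 in controls and 970, 867 and 932.3 in knockouts (log2 0.40, 95% interval -0.20 to 0.99). The other, with the suffix _a_at, had 1103, 843.8 and 967.3 in controls and 164.6, 109.6 and 156.2 in knockouts, and fell by 2.64 on the log2 scale (SE 0.19; limma adjusted p = 0.01995). Its groups lay far apart, with a knockout mean of 143 against 971. It was the only 1 of the 103 probe sets to pass. Its direction was the same under the 16 alternatives that kept it, with adjusted p values from 0.0045 to 0.141, and it lost the call with each array left out in turn (0.0609 to 0.0967). The annotation gives both probe sets to Psmd6 alone, and which transcripts each reads is not known here. With the mean of its probe sets Psmd6 was at -1.12 (adjusted p = 0.0468).

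**Figure D5:**
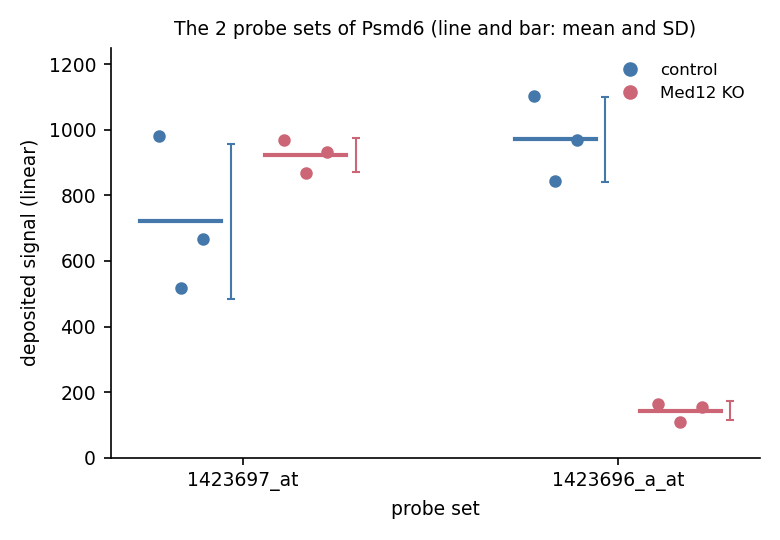
Deposited linear signal of the 2 probe sets of Psmd6 on each array; points are arrays, lines are means and bars are SD (n = 3). The first has overlapping groups, and the second has controls between 843.8 and 1103 and knockouts between 109.6 and 164.6.

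The remaining 54 probe sets of the 49 genes were less uniform than those chosen. Of the 36 brighter than the median probe set, 25 had a difference above 0 and 11 below, and of the 18 dimmer ones 12 and 6. Besides the Psmd6 probe set, 2 were lower at an unadjusted p of 0.05. A second Psma1 probe set had 96.3, 80.1 and 120 in controls and 37.7, 34 and 17.4 in knockouts (log2 -1.34, limma adjusted p = 0.0793). A dim second probe set of Psmg3 had 11.8 to 23.8 in controls and 5.1 to 8.9 in knockouts. Of the representative probe sets, 3 carry the suffix _x_at and 3 the suffix _s_at, which mark probes shared with other sequences, so their signals may include those of related transcripts.

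Genes of proteins that work with the proteasome were also mostly above 0. Of 18 listed cofactors 15 were measured, 12 had differences above 0, and 0 passed. The deubiquitinase Usp14, which trims chains on the regulatory particle, had 523.2, 454.7 and 365.3 in controls and 711.9, 816.8 and 742.4 in knockouts (log2 0.75, limma adjusted p = 0.117). The shuttle factor Ubqln4 was at 0.72, the second deubiquitinase Uchl5 at 0.49 and the thioredoxin-like subunit partner Txnl1 at 0.32, all without overlap. The median of the cofactors was 0.24. Of 17 genes of ubiquitin supply and the p97 segregase 11 were measured, 10 were above 0 with a median of 0.22, and 0 passed. Faf1 (0.52), Derl1 (0.26), Syvn1 (0.35) and Vcp itself (0.30) had the smallest p values.

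NFE2L1 is the factor that restores proteasome genes when proteasome activity is short, and NFE2L2 drives the antioxidant response. Neither passed: Nfe2l1 had 182.7 to 229 in controls and 146.7 to 263.9 in knockouts (log2 -0.04, 95% interval -0.59 to 0.52), and Nfe2l2 was at 0.28. Of the 11 measured genes of that list, 8 were above 0 and 0 passed. The glutathione synthesis gene Gclm had 314.4, 428 and 348.1 against 668, 651.3 and 780.9 (log2 0.92, SE 0.16, limma adjusted p = 0.0784). Keap1, which restrains NFE2L2, was at 0.84 and the quinone reductase Nqo1 at 2.27, the latter with 55.2, 63.4 and 56.1 against 203.4, 195 and 975.7. Both had groups apart, and Med12 KO replicate 3 stood far above the others for Nqo1. Txnrd1 was at 0.40 with overlapping groups.

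Genes that load peptides on MHC class I, the use to which immunoproteasome products are put, had a median of 0.05, with 7 of 12 above 0 and 0 passed. The peptide transporter Tap1, which lies between Psmb9 and Psmb8 on the chromosome, had 533.8, 414.3 and 541.7 against 547, 674.4 and 561.3 (log2 0.26, limma adjusted p = 0.525). The peptide-trimming protease Erap1 was at 0.58 and the transactivator Nlrc5 at 0.50, and the chaperone Calr was at -0.18. Of 13 measured genes of the interferon relay, 6 were above 0 and 0 passed, with a median of -0.11. Ifnar2, a chain of the type I interferon receptor, had 1065.3, 924.4 and 1180.9 against 623.9, 720.2 and 590.7 (log2 -0.70, SE 0.15, adjusted p = 0.111). Irf2 was at -0.70, Irf1, an inducer of immunoproteasome genes, at -0.52, and the kinase Jak2 at 0.62.

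Markers of cell state and cell type moved with these values, and their part in the results was not tested. Of the sort markers, Kit was at -0.89 with groups apart (limma adjusted p = 0.152), and Ly6a, which encodes Sca1, was not analysed here. The progenitor genes Cd34 (-1.43) and Flt3 (-3.87), which were not part of the sort, were also below all controls without passing, and with Kit they summed to 3492 to 4791 in controls against 1079 to 1718. The 9 measured markers of dividing cells all had differences above 0 with a median of 0.85 and none passed, and their summed signal was 7294 to 8598 in controls and 10482 to 13645 in knockouts. Of 10 erythroid markers 9 had differences above 0 and 6 passed as higher, where 0.352% of all genes did. Their summed signal went from between 3500 and 4167 to between 7954 and 12039, while the globin gene Hba-a1 had 0.6 to 2.5. Slc4a1, the anion exchanger of red cells, lay the other way, with 23.2, 185.8 and 69.3 in controls against 11.8, 13.9 and 13.2 (log2 -1.60, limma adjusted p = 0.260). All 7 granulocyte-monocyte markers lay below all controls and 6 passed as lower, where 0.638% of all genes did. Their summed signals ran from 8135 to 15254 on control arrays and from 623.4 to 1498 on knockout arrays. All 5 early lymphoid markers lay below all controls and 4 passed as lower. Summed over the 5, signals were 2611 to 3062 in controls and 54.8 to 112 in knockouts. Summed signals of 3 B cell markers were 27.5 to 138.2 in controls and 10 to 21.3 in knockouts, those of 4 macrophage and dendritic markers 442 to 585.5 and 161.9 to 302.9, and those of 4 neutrophil markers 490.6 to 1034 and 40.1 to 462.9. Of these 11 genes, C1qa passed as lower and the others did not pass. The 4 T and NK markers overlapped in sum, at 1262 to 1717 and 1099.9 to 1530, and none passed. Among them Nkg7, a granule protein of cytotoxic cells, had 923.5, 917.9 and 1110.2 in controls and 995.3, 1342.4 and 1023.1 in knockouts (log2 0.18), and Ccl5 was at -1.70 with groups apart. The T cell genes Cd3e and Cd3g had signals of 3.1 to 19.7 on all 6 arrays.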

How the data were processed

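The authors deposited 1 linear signal intensity per probe set and array. RMA, with no version, is named in the submitters' processing notes, yet the deposited intensities contain zeros and share a 2% trimmed mean of 150.0, so how they were made is not known here. From them log2(signal + 16) was computed, 64 control probe sets were left out, and 45037 were tested with limma 3.58.1 (lmFit, eBayes; R 4.3.3), two-sided (Benjamini-Hochberg over all probe sets, 6 arrays). Names come from the platform annotation, where 34945 tested probe sets had 1 symbol, 932 several and 9160 none. The members and lists were chosen with earlier results of these data known. Named genes were the catalytic subunits, the 3 members of smallest unadjusted p in each structural class, and up to 4 of each other list; the remaining members, Psmd6 probe sets and second probe sets were chosen after seeing values. The fitting code was tested on simulated data. The same replicate number gave correlations of deviations of 0.00 to 0.02. They were taken over all probe sets, of which 41.6% to 49.5% per array had a signal under 16. They cannot decide whether the numbers pair samples, which is not known here. Alternatives were the variance prior, array weights, a replicate block, 3 normalizations, other offsets, a filter, averaging probe sets, a plain equal-variance test and leaving out each array. Genes without a probe set of their own were not analysed here. Promoter sequences are RefSeq's. The number of arrays limits the precision.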

Additional observations from a re-analysis of the deposited data

Results flagged for a closer look

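The only probe set for Psme2, the partner of Psme1 in the interferon-inducible activator, is assigned to Psme2b as well and so represents no gene here. It had signals of 617.9, 833.8 and 557.1 in controls and 1238.1, 1217.1 and 1225.9 in knockouts, a log2 difference of 0.88 (SE 0.17, limma adjusted p = 0.0981). It is given because it lies outside the genes compared and its knockout signals are all above the control level.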

How the results depend on the processing

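The count of member genes past limma's threshold was 0 higher under all 17 alternatives and 0 lower under 16; averaging each gene's probe sets gave 1 lower, Psmd6 (-1.12). Probe sets called went from 343 to 0 with the replicate block (where 6752 had an unadjusted p under 0.05), 693 after median centring, 756 without the dimmer 50% of probe sets and 1 in the plain test, and lay between 0 and 10 with 1 array left out. The share of higher calls was 28.9%, or 62.2% after median centring and 43% after quantile normalization. The replicate block, fitted although pairing by number is not known, changed no member call but that of the Psmd6 probe set (limma adjusted p = 0.141). Median centring, which moved the median of all genes from -0.05 to 0.22, gave medians of 0.52, 0.74 and 0.39 for the constitutive core, regulatory particle and immunoproteasome. Relative to all genes these were 0.30, 0.52 and 0.17, against 0.16, 0.38 and 0.10 after quantile and 0.17, 0.41 and 0.05 after loess normalization. With 1 array left out the medians ranged from 0.18 to 0.26, 0.37 to 0.61 and 0.01 to 0.20. Directions turned for Psmb8 (0.14), Psmg3 (0.27) and Psmg4 (0.17) after median centring, for Psma6 (-0.024) and Psmb4 (-0.01) after loess, and for Psma6 (-0.010), Psma1 (-0.19) and Psmb1 (-0.17) with averaged probe sets. Leaving out 1 array in turn gave ranges across 0 for Psmb7 from -0.077 to 0.33, Psmg3 from -0.078 to 0.094, Psmg4 from -0.23 to 0.042, Psmd10 from -0.085 to 0.14, Psmb4 from -0.013 to 0.13 and Psma6 from -0.018 to 0.10. The causes were not tested.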
